A study of Danio rerio with 9 samples.

Results

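A set of 232 zebrafish (Danio rerio) transcripts, each measured by 1 oligonucleotide probe, was within the range of empty spots from the 64-cell to the sphere stage and above it from 30% epiboly to the tailbud stage. The set was taken from 16176 probe IDs of a spotted array. A probe was called on at a stage when its median Cy5 spot intensity exceeded the 95th percentile of that array's blank spots, called the blank level below. Members were off at 64-cell, high and sphere and on at 30% epiboly, 50% epiboly, shield, 75% epiboly, 90% epiboly and tailbud, which held for 1.43% of the IDs. Members were thus chosen by the stage signals themselves, so the difference between the first 3 and the last 6 stages is described here and not tested.

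Each stage was 1 pool of 30 to 50 uninjected wild-type embryos (outbred stock, 28.5 °C), all from a single clutch. The series description speaks of dye-swapped hybridisations, but all 9 arrays analysed here had the stage in Cy5 and the reference in Cy3. Each stage's RNA was hybridised once on these arrays, against a reference pool to which each of the 9 stages had contributed equally. The reference pool was thus the same material on every array, but a stage had no replicate and no dye-swapped array was analysed here. These were whole embryos without any transgene, injection or treatment, so a change in RNA per cell and a change in the number of cells that make it cannot be told apart.

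Early zebrafish development starts on RNA and protein that the mother placed in the egg. The embryo's own genome is activated broadly during the blastula stages, around the mid-blastula transition, while much of the maternal RNA is degraded. At 30% epiboly the blastoderm has begun to spread over the yolk, and it precedes the formation of the germ ring and the embryonic shield, the fish organiser. Transcripts that appear at this time in zebrafish are known to include regulators of mesoderm, endoderm and the dorsoventral axis. The files used here do not pair these oligonucleotides with genes, so no member could be placed in such a class, and members are given by probe ID.

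The arrays differed in brightness, which bears on the rule. The median Cy5 intensity of the probe spots lay between 324.5 at shield and 995.25 at 64-cell, and the share of IDs called on lay between 40.4% at shield and 69.7% at tailbud. At all 9 stages 5804 IDs were on, and at none 3507. None of the 172 spots of the control CGENZFCTRL_40001_0 followed the members' pattern. These spots repeat the same control, and its state at each stage was not tabulated. A control that is on at every stage, or off at every stage, could not follow the pattern. The count therefore does not test the rule.

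The members' stage signal was low on the first 3 arrays and high on the last 6. The median Cy5 intensity of the 232 members was 420.5 at 64-cell, 250.5 at high and 302.25 at sphere, where the blank level was 595.75, 420.95 and 428.35. From 30% epiboly to shield it was 1082.25, 963 and 686.75 in stage order, and from 75% epiboly to tailbud 2171, 2466.5 and 1944. As multiples of the blank level, the median member stood at 2.10, 2.50, 1.69, 3.48, 4.65 and 4.83 over the 6 later stages in order. The dip at shield fell on the dimmest array, where the members' pool signal was also lowest, at a median of 707.5 against 1154.5 to 1669.75 on the other arrays.

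**Figure D1:**
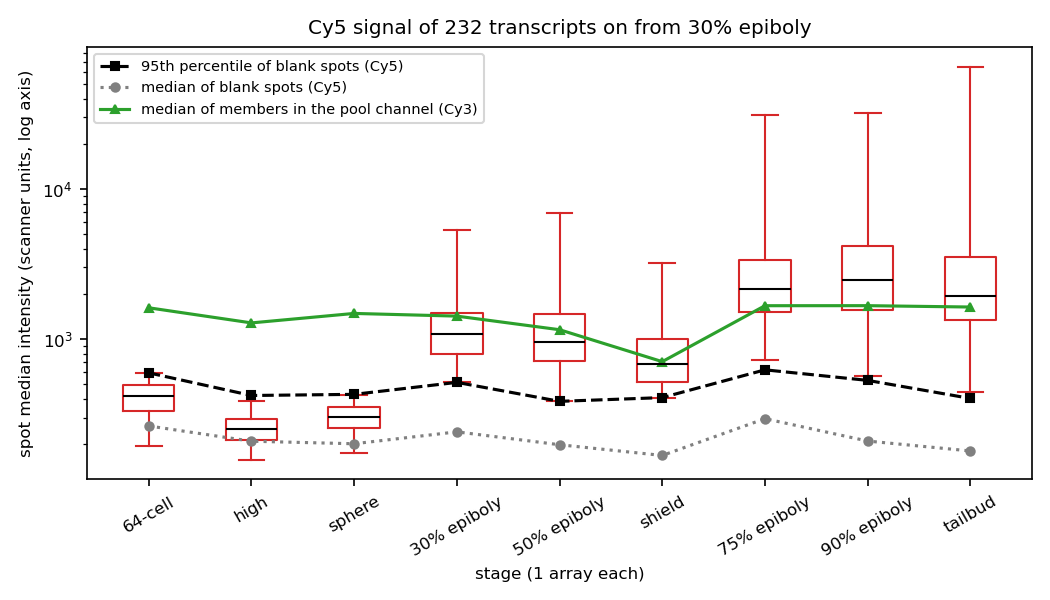
Median spot intensity (scanner units, log axis) of the 232 members at each of the 9 stages, 1 array a stage. Boxes show the quartiles and whiskers the lowest and highest member in the Cy5 channel; the squares are the 95th percentile and the circles the median of the blank spots, and the triangles the members' median in the Cy3 pool channel. By the rule the boxes lie under the squares at the first 3 stages and above them at the last 6, while the pool median is above the blank level on all arrays.

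On the early arrays the members were within the range of the blank spots but not at its bottom. The median member stood at the 80.2 percentile of the blank spots at 64-cell, at 61.5 at high and at 77.9 at sphere. A low level of some of these transcripts before 30% epiboly could therefore not be told from empty spots at this signal. The same spots were bright in the other channel. In the pool channel, not used by the rule, 230 of the 232 members exceeded the 95th percentile of blank spots on all 9 arrays. The share of all IDs was 67.6%, but 3507 of those IDs were on at no stage. The share among probes on at all 6 later stages was not counted. As the pool held the 6 stages at which members were on, their pool signal in part follows from the rule. On the 64-cell array 231 members were on in the pool channel, and on the high and sphere arrays all 232 were. Among 88 IDs on from sphere onward 87 were on in the pool channel on all 9 arrays, and among 310 IDs on from 75% epiboly onward 213 were. These groups differ in how many of the pooled stages hold the transcript, and the difference was not tested.

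After normexp background correction and loess normalization, the log2 ratio of stage over pool gives each member relative to all probes of its array. The members' median ratio was -2.38 at 64-cell, -2.05 at high and -1.90 at sphere. Over the 6 later stages it was 0.08, 0.45, 0.49, 0.59, 0.65 and 0.48 in order. The median over all 16108 tested probes lay between -0.02 and 0.01 at every stage. A transcript absent from the first 3 stages and equal at the last 6 would have a later ratio of 0.58 in a pool of all 9. The median of the members' mean later ratio was 0.44.

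The step from sphere to 30% epiboly was the largest increase of the series for 227 of the 232 members. The median difference was 1.95 on the log2 scale (quartiles 1.41 and 2.58, range 0.72 to 4.62), beside 0.06 over all tested probes. At least 2-fold higher at 30% epiboly were 222 members, beside 7.44% of tested probes, and 114 members were at least 4-fold higher. The share of tested probes was not counted at 4-fold, nor for the largest increase of the series. In the stage channel alone, quantile normalized between arrays, the members' median difference was 1.93, and 217 members were at least 2-fold higher. The share of tested probes was not counted for this measure. In the pool channel, normalized in the same way and with the same RNA on both arrays, the members' median difference was 0.04. There 0 of 232 members differed at least 2-fold. For 227 members the lowest later ratio was above the highest earlier ratio, beside 24% of tested probes. The rule selected for all of these values, and nothing is read from their size against the background.

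Before that step the differences were smaller and the signals too low to rank. The median difference was 0.33 from 64-cell to high and 0.14 from high to sphere, against 0.03 and 0.01 over all tested probes. At least 2-fold higher were 4 of the 232 members at the first of these steps and 6 at the second. Over the 16108 tested probes the counts were 61 and 229. In the stage channel alone, quantile normalized between arrays, the first of these medians was -0.06, so its sign depended on the scaling, and the second was 0.24.

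Because the early signals lay under the blank level, the size of the rise is a lower bound. With each early signal set at the blank level where it was below it (Cy5 channel after loess and Aquantile normalization), the mean of the later stages was at least 1.21-fold to 22.5-fold higher, with a median of 2.89-fold. At least 2-fold higher by this measure were 180 members, at least 4-fold 62 and at least 10-fold 7. The rule selected for a high value of this fold, and the counts were not made over all tested probes. They are a description of the members only. The measured early signals gave a median of 5.64-fold. Without dye swaps these folds are open to a dye effect that differs between arrays.

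**Figure D2:**
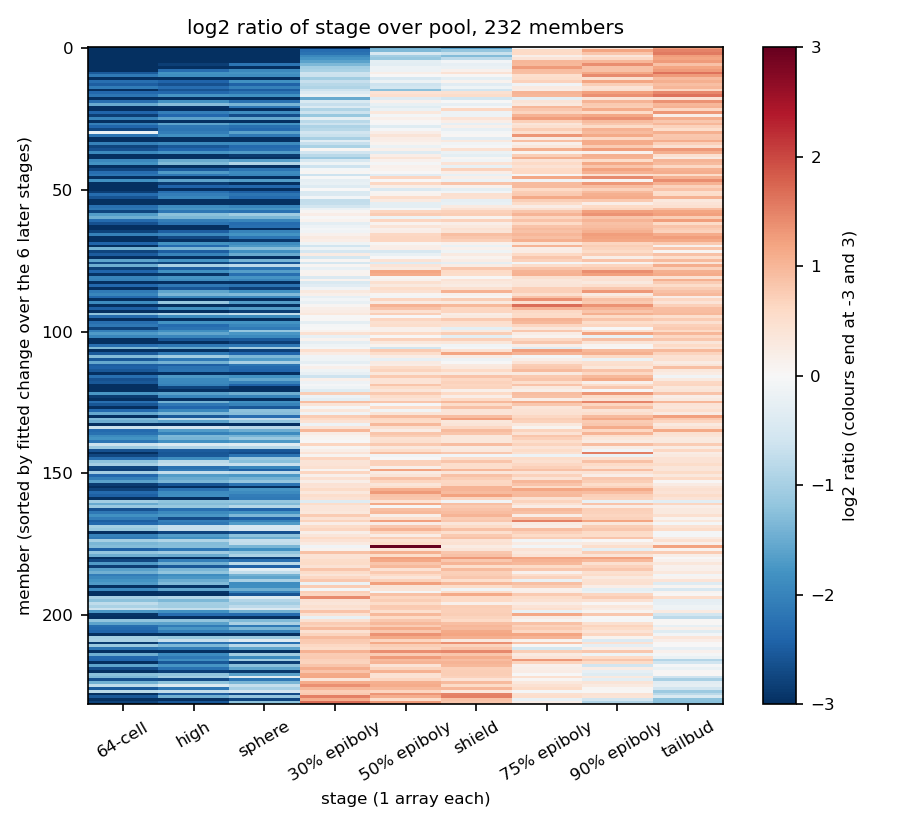
Log2 ratio of stage over pool for the 232 members (rows, sorted by their fitted change over the 6 later stages) at the 9 stages (columns, 1 array each), with colours ending at -3 and 3. All rows are higher at 30% epiboly than at sphere, and most turn from blue to near white or red there. Some rows at the top are still blue at 30% epiboly. The rows differ in whether the later columns become redder (top) or become paler or blue (bottom).

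The question left to test was whether the members, once on, went on rising, stayed level or declined. A straight line in stage order was fitted to the log2 ratios of the 6 later arrays for all tested probes (limma, 4 residual degrees of freedom before moderation, Benjamini-Hochberg adjustment over 16108 probes, threshold 0.05). The rule used the same 6 signals. It put a floor under each of them. This removes transcripts that fall below the blank level by tailbud, and also those that are still below it at 30% epiboly and rise later. At 30% epiboly alone 11 IDs failed the rule, at tailbud alone 3, and 310 IDs were on only from 75% epiboly onward. The balance of rise and fall is thus in part set by the choice of members, and the direction of that effect was not tested. With 1 array a stage, the error of the slope is the scatter around a line and not the spread of replicate embryos.

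Of the 232 members 79 rose (34.1%) and 20 fell (8.62%) from 30% epiboly to tailbud, and for 133 no trend was called. Over all tested probes, which had no such floor, 9.78% rose and 11.1% fell. Among the 6391 probes on at all 6 later stages, fitted alone, 13.5% rose and 19.5% fell, and 81 members rose and 23 fell in that fit. These probes share the later floor with the members but not the condition of being off at the first 3 stages. The slope was positive in 154 members and negative in 78, and the median fitted change over the 6 stages was 0.45 on the log2 scale, beside -0.02 over all tested probes. Leaving out the 30% epiboly array lowered the rising share of the members and of all tested probes. The falling share went up in the members and down over all tested probes. The members' balance of rise and fall thus changed with this array. Without that array 41 members rose (17.7%), all of them among the 79, beside 5.77% of tested probes. In the same fit 27 members fell (11.6%), 16 of them among the 20, beside 6.59% of tested probes. The falling count was 13 without 50% epiboly and 12 without tailbud. The share of tested probes was not counted for these fits, so a lower count does not show that the members depended on that array. The authors' deposited value table, in which arrays are not centred, gave 98 rising and 3 falling members, beside 14.4% and 2.88% of tested probes, so the balance of rise and fall depended on the scaling. With each array's median subtracted that table gave 69 and 12, for which the share of tested probes was not counted.

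The same fit was run on the pool channel, in which the RNA was the same on every array. It used single-channel levels and not ratios, so it is a comparison for the stage channel alone and not for the ratio calls. Array effects in Cy5 alone cannot be seen in it. In limma's fit 0 of 232 members and 0 of 16108 probes were called there in either direction, with 14 members (6.03%) at an unadjusted p under 0.05, beside 2.42% of tested probes. The stage channel alone, quantile normalized in the same way, gave 48 rising and 11 falling members, beside 4.25% and 4.11% of tested probes. Over the 6 later arrays the stage channel of a member spanned a median of 1.22 on the log2 scale and the pool channel 0.51. The stage range exceeded the pool range in 213 members (91.8%), beside 81.8% of tested probes. Over all 9 arrays the SD of a member's pool level had a median of 0.18 (range 0.03 to 0.71, 9 arrays).

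**Figure D3:**
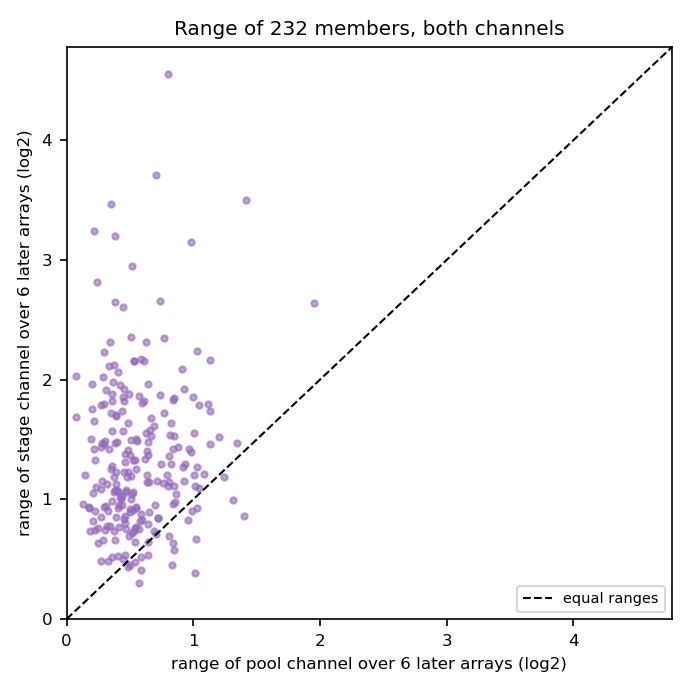
Range over the 6 later arrays of each of the 232 members (points) in the quantile-normalized stage channel (vertical axis, log2) against the pool channel (horizontal axis, log2), in which the same RNA was hybridised each time. The dashed line marks equal ranges, and 213 of the 232 members lie above it.

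The 79 rising members were chosen by their slope, so a low start and a later gain are described and not tested. Their median ratio was -2.21 at sphere and then -0.46, 0.06, 0.12, 0.61, 0.89 and 0.95 over the 6 later stages in order. Their fitted change had a median of 1.33 and a highest value of 4.45, and it was at least 2-fold in 63 of them. In the median they were thus below the pool at 30% epiboly and above it from 50% epiboly on.

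The 20 falling members, likewise chosen by their slope, were high right after the step. Their highest ratio fell at 30% epiboly in 11, at 50% epiboly in 5 and at shield in 4. Their median ratio was -1.31 at sphere and then 0.97, 0.87, 0.83, 0.24, 0.05 and -0.24 over the same 6 stages. The fitted change had a median of -1.30 and a lowest value of -3.11. Their median step from sphere to 30% epiboly was 2.53, against 1.79 in the rising members, a difference that shares the 30% epiboly array with the slope and was not tested.

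The 133 members without a called trend were mixed. Their median ratio went through 0.33, 0.59, 0.63, 0.65, 0.59 and 0.36. Their fitted changes ran from -1.15 to 1.40, and a missed threshold does not show that they stayed level. The 88 IDs already on at sphere are the nearest group in time, and 9 of them rose and 31 fell over the same 6 arrays, with a median fitted change of -0.55. The difference from the members was not tested.

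**Figure D4:**
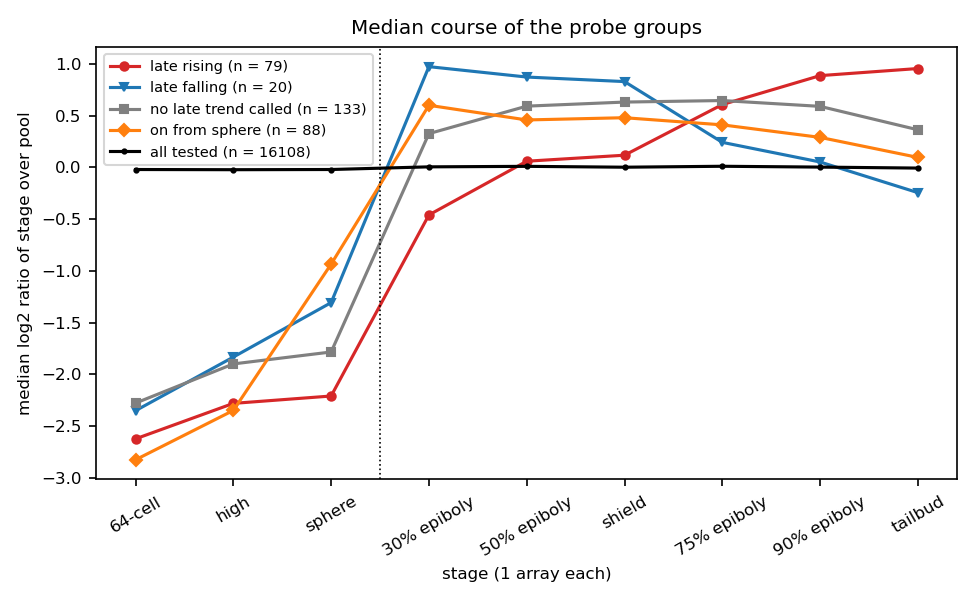
Median log2 ratio of stage over pool at each stage (1 array each) for the 79 rising, 20 falling and 133 uncalled members, for 88 probe IDs on from sphere onward and for all 16108 tested probes. The dotted line marks the step between sphere and 30% epiboly; the rising members start at -0.46 and end at 0.95, and the falling members start at 0.97 and end at -0.24.

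The stage of the highest ratio differed widely among members. From 30% epiboly to tailbud in stage order the numbers of members highest at each stage were 18, 32, 29, 41, 54 and 58. Over all tested probes the shares, in the same order, were 23.1%, 14.8%, 12.7%, 13.5%, 14.2% and 21.7%. The lowest of the 6 later ratios fell at 30% epiboly for 129 members, beside 21.9% of tested probes, and at tailbud for 56, beside 24.6%. At 30% epiboly 142 members were within 2-fold of their highest later ratio, and 15 were more than 4-fold below it. These counts were not made over all tested probes, so they do not show how members differ from other probes.

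Among the 18 members highest at 30% epiboly the median ratio declined from 1.04 at that stage to 0.27 at 75% epiboly and -0.09 at tailbud. The 32 members highest at 50% epiboly had a median of 0.97 there and 0.14 at tailbud, and the 29 highest at shield 0.96 and 0.13. The 58 members highest at tailbud had a median of -0.31 at 30% epiboly, -0.02 at shield, 0.42 at 75% epiboly and 0.96 at tailbud. These groups were formed by the values they describe.

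Of the rising members, the pair with the largest fitted change is given in full. CGENXEB_456011657_0 had a Cy5 intensity of 439 at 64-cell, 192 at high and 266 at sphere. Over the 6 later stages in order it was 1487, 3314, 2131, 13309, 27089 and 65314. The last was above 60000, the level set here for saturation. The signal was thus lowest at the first 3 stages and higher at every later step except from 50% epiboly to shield, where the log2 ratio also went from -1.43 to -1.65. In the pool channel the spot lay between 5854 (shield) and 20657 (tailbud). Its log2 ratio went from -3.54 at 30% epiboly to 1.26 at tailbud, a fitted change of 4.45 ± 0.43 (SE, 6 arrays; limma, adjusted p = 0.00023, range over the alternatives 5.5e-06 to 0.0028). As the tailbud intensity was above the level set for saturation, the tailbud ratio may be a limit and the fitted change may not be exact. Without tailbud the fitted change was 4.66.

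CGENXEB_456000952_0 was barely above the blank level at first. Its Cy5 intensity was 346.5 at 64-cell, 221 at high and 251 at sphere. Over the later stages in order it was 576.5, 612.5, 531, 3639.5, 12794.5 and 9460. At 30% epiboly the signal was 1.12 times the blank level, and most of the gain came after shield. The fitted change was 4.01 ± 0.34 (SE, 6 arrays; limma, adjusted p = 0.00016, range over the alternatives 8.3e-06 to 0.0028).

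Of the falling members, CGENXEB_456004135_0 had the largest fitted decline. Its Cy5 intensity was 271 at 64-cell, 203 at high and 399.5 at sphere. Over the later stages in order it was 2452, 1780, 717, 2185, 1070 and 808.5. Relative to the pool, which gave 581 on the dim shield array and 2050 at 75% epiboly, it declined at every step, from 1.68 at 30% epiboly through 0.82 at shield to -1.25 at tailbud. The fitted change was -3.11 ± 0.24 (SE, 6 arrays; limma, adjusted p = 0.00011, range over the alternatives 4.0e-05 to 0.0028).

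CGENXEB_456005404_0 was 3.83 higher on the log2 scale at 30% epiboly than at sphere, where its signal lay under the blank level and the ratio is poorly measured. Its Cy5 intensity was 265.5 at 64-cell, 194 at high and 279 at sphere. The later values in order were 3425, 1056, 1534.5, 1923.5, 1889 and 1082. Its log2 ratio fell from 1.08 at 30% epiboly to -1.22 at tailbud, a fitted change of -2.28 ± 0.30 (SE, 6 arrays; limma, adjusted p = 0.00076, range over the alternatives 0.00018 to 0.033). The scanner software flagged the spots of both falling probes on 4 of the 6 later arrays, so neither could be tested with flagged spots left out. Unflagged were 30% epiboly and 50% epiboly for CGENXEB_456004135_0, with ratios of 1.68 and 1.28, and 30% epiboly and shield for CGENXEB_456005404_0, with ratios of 1.08 and 0.89. A line through those 2 arrays, extended to tailbud, gives a change of -2.01 and -0.49, so both declines as printed rest on flagged spots.

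**Figure D5:**
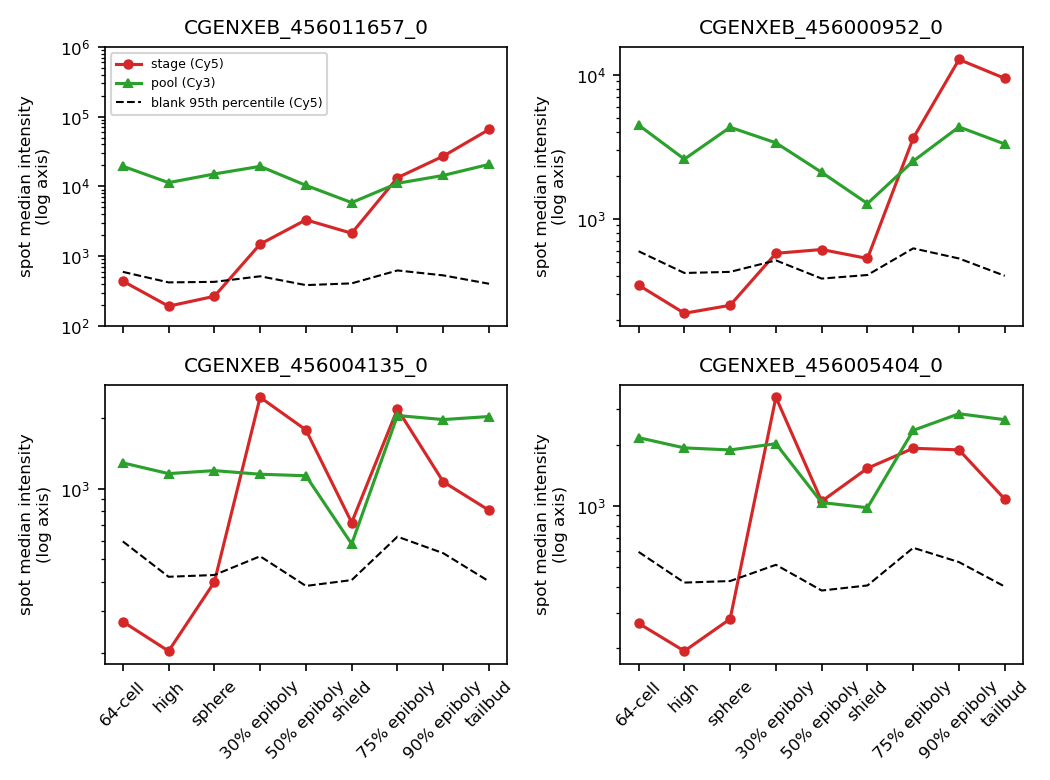
Median spot intensity (scanner units, log axes) at the 9 stages (1 array each) of the 2 rising (top) and 2 falling (bottom) members with the largest fitted change, in the stage channel (circles) and the pool channel (triangles), with the 95th percentile of blank spots in the stage channel (dashed). CGENXEB_456011657_0 climbs to 65314 at tailbud, whereas CGENXEB_456004135_0 and CGENXEB_456005404_0 are brightest at 30% epiboly, at 2452 and 3425.

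A single array decided some values. CGENXEB_456000690_0, chosen after its values were seen because it had the largest step among the later stages, went from a log2 ratio of -0.10 at 30% epiboly to 3.22 at 50% epiboly and 0.25 at shield. Its spot was flagged at 50% epiboly, and its pool signal was 447 there against 919 at 30% epiboly. The 95th percentile of blank spots in the pool channel of the 50% epiboly array was 484.7. By its spot median, the pool signal was thus within the range of empty spots there. The ratio of 3.22 was computed from background-corrected spot means, which are not given here. Of all members, 69 had a flagged spot on at least 1 later array. With flagged spots left out 75 members rose and 15 fell, and 6 could not be tested. None of these counts was made over all tested probes, so they do not set the members apart. Member spots were flagged less often than all probe spots at 30% epiboly (6.69% against 19.0%) and more often at 75% epiboly (15.5% against 11.4%).

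Printed in 2 spots each were 7 of the members, which gives the error between spots on an array. The absolute difference of log2 ratio between the 2 spots had a median of 0.24 on the 6 later arrays (highest 0.96) and 0.43 on the 3 earlier ones (highest 4.01). Ratios of the earlier stages were thus the less repeatable. Over the 32 print blocks the number of member spots lay between 1 and 19, with a median of 8.

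Membership was decided close to the blank level for some IDs. Within 10% of it on at least 1 array were 74 members. Lowest relative to blanks at shield were 163 members, and 22 were within 10% above the level there. Just outside, 75 IDs failed the rule at shield alone, with a median of 0.85 times the blank level, and 24 of them were within 10% below it. At 64-cell 73 IDs failed alone, 19 of them within 10% above the level, and at sphere 88 failed alone, 14 of them within 10%. Without the shield array the rule found 307 IDs, without the sphere array 320 and without the 64-cell array 305.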

How the data were processed

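RNA of 9 stages was measured on 9 arrays. The authors' scanner tables hold spot and local background intensity per channel, per the file headers (ImaGene), not normalized; total RNA (800 ng) was amplified and dye-coupled, per the labels' protocols. The deposited value table holds log2 ratios; they equalled log2 of background-subtracted red over green within 0.001 for 98.7% to 99.1% of IDs, with column medians from -0.95 to 0.02. From the scanner tables, spot means were corrected with normexp (offset 50) and normalized by loess, controls at weight 0 (limma 3.58.1, R 4.3.3), and spots of an ID averaged. Tested were 16108 of 16178 IDs, whose spot exceeded local background by 2 SD in either channel on 3 or more arrays. The late slope used stage order and was tested on simulated data. Those data held straight-line changes and independent errors, so they say nothing of effects of a single array. Members, lists and tests were chosen with earlier results of these data known. Named are the 2 rising and the 2 falling members with the largest late change past the threshold; the rule for genes and gene lists could not be applied, as IDs are not paired with genes, nor with sequences. The number of arrays limits the precision.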

Additional observations from a re-analysis of the deposited data

How the results depend on the processing

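No paired analysis was possible because each stage has 1 array. The number of members lay between 201 and 320 over 13 alternatives to the rule, and 219 (99th percentile of blanks) and 228 (spot mean) of the 232 were on in the pool channel on all 9 arrays. Rising members numbered 41 (without 30% epiboly) to 79 when 1 array was left out, and falling members 12 (without tailbud) to 27. The stage channel alone gave 48 and 11, and 11 members highest at 30% epiboly against 18. The authors' value table gave 98 and 3, or 69 and 12 with medians subtracted; for the late trend the stage channel, flagged spots and subtracted medians were added after the data were seen. The other alternatives (background correction, centring, print blocks, filters, hours) gave 78 to 86 rising and 16 to 25 falling. Shares of tested probes were counted only for the fits where they are printed above. The median step from sphere to 30% epiboly was 1.52 without background subtraction and 2.30 in the authors' table, and the difference of tailbud over 30% epiboly 0.85 in that table against 0.48, where the median of all probes shifted by 0.28. All 4 members named by the rule kept their direction and their side of the threshold in every alternative that could be fitted. Early levels under the blank level are bounds.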
